A study of Mus musculus with 3 samples.

Results

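The neurofilament and peripherin genes are the intermediate filament genes of mature neurons: Nefl, Nefm and Nefh, which encode the light, medium and heavy neurofilament subunits, Ina, which encodes alpha-internexin, and Prph, which encodes peripherin. They were chosen by symbol, and all 5 were found among the 31040 genes of the UMI table. The table came from single-nucleus RNA sequencing (10X Genomics droplets) of frozen lumbar spinal cord from 12 mice aged 90 days, and it held 14662 nuclei and 206486779 UMIs (unique molecular identifiers, counted RNA molecules). SOD1G93A mice (3 female and 3 male, strain B6.Cg-Tg(SOD1*G93A)1Gur/J) carried a high-copy human SOD1 transgene and were compared with WT littermates of the C57BL/6J strain (3 female and 3 male) that lacked it. Nuclei of 1 mouse of each sex and genotype were marked with hashtag antibodies and mixed into 1 of 3 pools, called A, B and C here and batches in the labels, so each sex and genotype had 1 mouse in every pool. No other treatment was given, every mouse was sampled at the same age, and the mouse is the replicate throughout.

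Neurofilaments are built from Nefl, whose product can form filaments with Nefm, Nefh and alpha-internexin as partners, and they fill large myelinated axons and set their calibre. The long tails of Nefm and Nefh are heavily phosphorylated and project from the filament. Alpha-internexin is a partner of the central nervous system, and peripherin belongs to neurons that send an axon out of the brain and spinal cord, such as motor neurons and sensory neurons. Neurofilament accumulation in motor axons is a known feature of amyotrophic lateral sclerosis, and the light subunit is measured in blood and cerebrospinal fluid as a sign of axon damage.

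On the mm10 assembly (RefSeq annotation), Nefl lies on chromosome 14 at 68083863-68089095 on the plus strand, and Nefm lies close by on the same chromosome at 68119545-68125004 on the minus strand. Nefh lies on chromosome 11 at 4938754-4948064 on the minus strand. Prph lies on chromosome 15 at 99053579-99058978 and Ina on chromosome 19 at 47014681-47025327, both on the plus strand. In the GENCODE vM21 annotation the Nefm gene reaches back to position 68082590, across Nefl on the opposite strand, so counts of the pair could be told apart only by a count that used strand, and whether strand was used is not given in the sources used here.

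The pools held 51005261 to 88951823 UMIs, the median nucleus had 9434 UMIs, and 15 cell barcodes occurred in more than 1 pool. The nuclei had been assigned by the study to 10 cell types, and neurons also to 9 sub-types by mapping to a reference of spinal neurons: dorsal excitatory (DE), dorsal inhibitory (DI), mid excitatory (ME), mid inhibitory (MI), ventral excitatory (VE), ventral inhibitory (VI), ventral cholinergic other than motor neurons (VC), ventral mixed (VM) and unclear. Levels are given as CPM, a gene's UMIs per 1000000 UMIs of all genes in the same nuclei, with mean ± SD over mice. The marker genes fixed for motor neurons (Chat, Slc5a7, Slc18a3, Isl1 and Mnx1) summed to 390 CPM in the 67 motor neuron nuclei and to 13.8 CPM in other neurons, with Slc18a3 at 0 UMIs in both. In the nuclei labelled Schwann and meningeal cells, neuron markers summed to 4708 CPM (3294 CPM in neurons) and oligodendrocyte markers to 4979 CPM (6751 CPM in oligodendrocytes). In the nuclei labelled microglia, microglia markers summed to only 86.8 CPM beside 2086 CPM of neuron markers and 2699 CPM of oligodendrocyte markers. These 2 labels are therefore kept only as names of nuclei, not as statements on the cells.

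The table held 18107 UMIs of Nefl, 18694 of Nefm, 7350 of Nefh, 7360 of Ina and 1070 of Prph. A Nefl UMI was found in 47.6% of all nuclei and a Prph UMI in 3.75%. Neurons other than motor neurons, 60.0% of all nuclei and 70.9% of the UMIs of all genes, held 69.6% of the UMIs of Ina, 57.9% of Nefm, 51.8% of Nefh, 44.0% of Nefl and 24.8% of Prph, so each gene had a smaller share there than the UMIs of all genes. The 67 motor neurons were 0.457% of all nuclei and 1.91% of the UMIs of all genes, and held 31.5% of all Prph UMIs, 6.23% of Nefm, 5.35% of Nefh, 4.09% of Nefl and 1.01% of Ina. Prph thus had the largest share of its UMIs in motor neurons, and Ina the smallest. The nuclei labelled Schwann and meningeal cells, 7.03% of all nuclei and 1.53% of the UMIs of all genes, held 28.8% of Nefl, 26.7% of Prph, 22.8% of Nefh, 19.0% of Nefm and 13.6% of Ina UMIs.

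**Figure D1:**
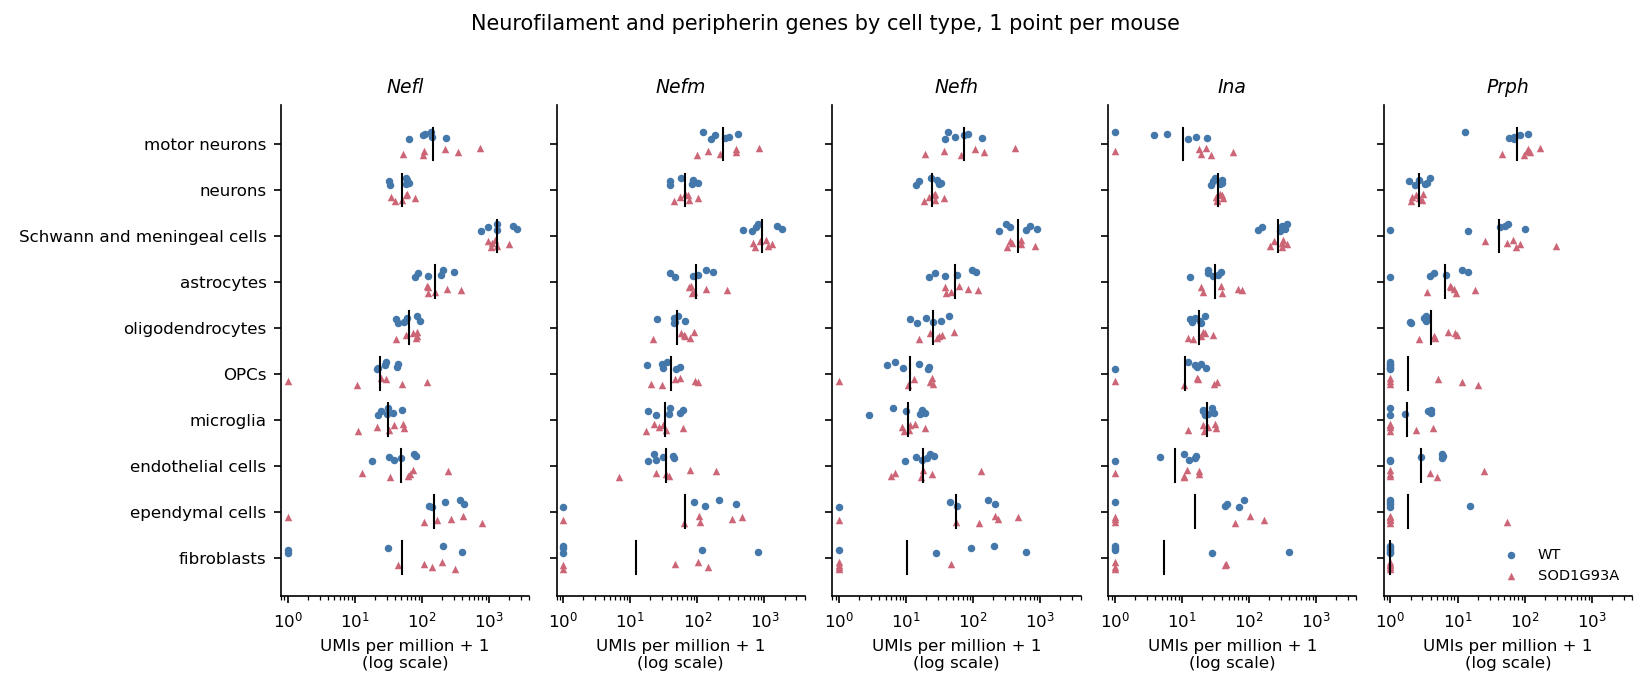
CPM plus 1 (x axis, log scale) of each gene in each cell type (y axis), with 1 point per mouse, WT as circles and SOD1G93A as triangles, and a bar at the mean on the log scale over all mice. Nefl, Nefm, Nefh and Ina were highest in the nuclei labelled Schwann and meningeal cells. Prph had its highest mean in motor neurons, which overlapped with Schwann and meningeal nuclei. The genotypes overlapped for every gene in every cell type.

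The order of levels over cell types had few steps that passed a permutation test within mice, at an adjusted p under 0.05. For each gene, cell types next to each other in mean log2(CPM + 1) were compared within mice by an exact two-sided sign-flip permutation test, with Benjamini-Hochberg adjustment over the 85 neighbour pairs of the 5 genes in cell types and sub-types. For Nefl the order ran from Schwann and meningeal nuclei (1420 ± 572 CPM, n = 12) to astrocytes (178 ± 94.1 CPM), ependymal cells (278 ± 220 CPM, n = 11), motor neurons (197 ± 190 CPM, n = 12), oligodendrocytes (66.5 ± 19.6 CPM) and lower types. Schwann and meningeal nuclei were above astrocytes in 12 of 12 mice for Nefl (adjusted exact permutation p = 0.0083), while astrocytes, ependymal cells and motor neurons could not be ordered. Of 9 neighbour steps, 2 passed for Nefl, Nefm and Nefh each, and 1 for Ina and Prph each. For Nefm and Nefh, Schwann and meningeal nuclei were above motor neurons in 12 of 12 mice (adjusted exact permutation p = 0.0083 for both), and for Ina above neurons in 12 of 12 (adjusted exact permutation p = 0.0083). For Prph, motor neurons were above Schwann and meningeal nuclei in 9 of 12 mice, and that step did not pass (adjusted exact permutation p = 0.75). No step between neighbours below oligodendrocytes passed for any of the 5 genes.

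In motor neurons, Nefm was 288 ± 200 CPM (n = 12), with a lowest mouse at 97.5, a median of 239 and a highest of 827 CPM. Nefl was 197 ± 190 CPM, from 51.7 over a median of 125 to 740 CPM. Nefh was 101 ± 108 CPM, from 18.5 over a median of 68.8 to 422 CPM. All of these ranges were wide, a mouse had 1 to 11 motor neuron nuclei, and the same female SOD1G93A mouse of pool A, with 2 nuclei, was highest for each of the neurofilament subunits and for Prph. Ina was 16.5 ± 15.8 CPM and was listed at 0 UMIs in 2 of 12 mice. Prph was 87.4 ± 40.8 CPM, from 11.9 over a median of 90.6 to 168 CPM, and had UMIs in every mouse.

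Other neurons were far more even between mice, with 268 to 1565 nuclei each. Nefm was 67.5 ± 22.4 CPM (n = 12, from 37.5 to 102 CPM), Nefl 51.7 ± 14.8 CPM (from 31.5 to 79.9 CPM) and Nefh 24.3 ± 6.88 CPM (from 13.1 to 35.5 CPM). Ina had the smallest spread for its level, 34.1 ± 4.54 CPM (from 26.4 to 40.8 CPM). Prph was 1.73 ± 0.63 CPM, and its highest value in other neurons, 2.87 CPM, lay below its lowest value in motor neurons.

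Motor neurons were compared with other neurons of the same mice by limma-voom with the mouse as a block. The neurofilament subunits were all higher in motor neurons: Nefm by 2.06 on the log2 scale (SE 0.17, FDR 3.1e-09, higher in 12 of 12 mice), Nefl by 1.78 (SE 0.20, FDR 5.2e-07, 12 of 12) and Nefh by 1.94 (SE 0.25, FDR 2.9e-06, 11 of 12). Ina went the other way, with a log2 difference of -1.02 (SE 0.24, FDR 0.0025) and a lower level in 11 of 12 mice. Of the 11272 genes tested, 22.0% were called higher and 19.1% lower, so a call by itself sets none of the genes apart from this background. The types were named from the expression of these same nuclei, so the FDR describes how well the mice agree. Prph is among the marker genes that the study displays for motor neurons, and it may have been used to name them. Its log2 difference of 5.65 (SE 0.26) is given as a description only.

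The 67 motor neuron nuclei were also described singly. Nefm UMIs were found in 66 of them, Nefl in 65, Nefh and Prph in 57 each and Ina in 31. The median nucleus had 9 UMIs of Nefm, 5 of Nefl, 4 of Prph, 3 of Nefh and 0 of Ina, at a median depth of 53245 UMIs. With every nucleus thinned to 1000 UMIs, a Nefm UMI remained in 26.0 ± 23.3% of motor neurons (mean ± SD over 12 mice) and in 5.81 ± 1.73% of other neurons, and a Nefl UMI in 10.2 ± 15.5% and 5.71 ± 2.31%. Prph remained in 4.81 ± 9.64% and 0.304 ± 0.221%, with 23 shallower neurons left out. Endothelial cells, which should lack these genes and whose own markers summed to 6767 CPM beside 322 CPM of neuron markers, gave 5.91 ± 4.13% for Nefl, 5.06 ± 3.39% for Nefm and 0.303 ± 1.05% for Prph after the same thinning. For Nefl, Nefm and Prph, the shares of other neurons differed from these by less than the SD over mice, taken without pairing. Shares at 1000 UMIs thus showed no clear excess of these genes in neurons. Pooled levels differed by gene. Ina was 35.0 CPM in other neurons and 10.2 CPM in endothelial cells, Nefm 74.0 and 40.2 CPM and Nefh 26.0 and 23.1 CPM. Nefl, at 54.5 and 61.2 CPM, and Prph, at 1.81 and 3.68 CPM, had lower pooled values in other neurons. The mice were split, with Nefl higher in other neurons in 6 of 12 and Prph higher in endothelial cells in 7 of 12. Of the 283 endothelial Nefl UMIs, 72 came from the female SOD1G93A mouse of pool B, at 242 CPM. Endothelial Prph rested on 17 UMIs. Without thinning, a Nefl UMI was found in 96.3% of motor neurons, in 45.3% of other neurons (median depth 12865 UMIs) and in 32.0% of endothelial cells (median depth 6963 UMIs). Over the 67 nuclei, CPM of Nefl and Nefh had a Spearman rho of 0.45, Nefm and Prph 0.43, Nefm and Nefh 0.42, and Ina with any other gene at most 0.16. These nuclei share mice, pools and differing depths, and the values are descriptions.

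The genotype comparison asked whether the filament genes differ in SOD1G93A mice. In motor neurons, Nefl was 131 ± 55.4 CPM in WT (lowest 63.9, median 125, highest 229) and 262 ± 257 CPM in SOD1G93A mice (lowest 51.7, median 164, highest 740; n = 6 each). Nefm was 236 ± 104 CPM in WT (lowest 119, median 223, highest 400) and 340 ± 265 CPM in SOD1G93A mice (lowest 97.5, median 298, highest 827). The genotypes overlapped in both, and most of the higher SOD1G93A mean came from the mouse of pool A with 2 nuclei. Nefh was 70.5 ± 36.4 and 132 ± 149 CPM, Ina 9.55 ± 8.64 and 23.5 ± 19.0 CPM, and Prph 66.98 ± 33.2 and 108 ± 39.6 CPM, in WT and SOD1G93A mice respectively. For Prph the WT mice ran from 11.9 over a median of 68.5 to 113 CPM and the SOD1G93A mice from 44.3 over a median of 110 to 168 CPM, again with overlap.

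None of the 4 genes that passed the filter on low counts was called in motor neurons (limma, FDR under 0.1). The log2 differences, SOD1G93A minus WT, were 0.63 for Nefl (95% interval -0.18 to 1.45, FDR 0.52), 0.30 for Nefm (-0.41 to 1.01, FDR 0.76), 0.59 for Nefh (-0.58 to 1.76, FDR 0.71) and 0.54 for Prph (-0.22 to 1.29, FDR 0.56). Of 5118 genes tested in motor neurons, 3.07% were called, and none of the 4 had an unadjusted p under 0.05. Leaving out the mouse with 2 nuclei brought the differences to 0.30 for Nefl, -0.11 for Nefm, 0.01 for Nefh and 0.21 for Prph. Within pools and sexes, SOD1G93A was the higher of the pair for Nefl in 5 of 6 pairs, for Nefh, Ina and Prph in 4 of 6, and for Nefm in 2 of 6. Nefl in females had the largest estimate (1.41, SE 0.60, FDR 0.62), on only 7 SOD1G93A nuclei, and in males it was -0.14 (SE 0.57, FDR 0.94). The difference between the sexes was not called for any gene (Nefl -1.55, SE 0.83, FDR 0.98).

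**Figure D2:**
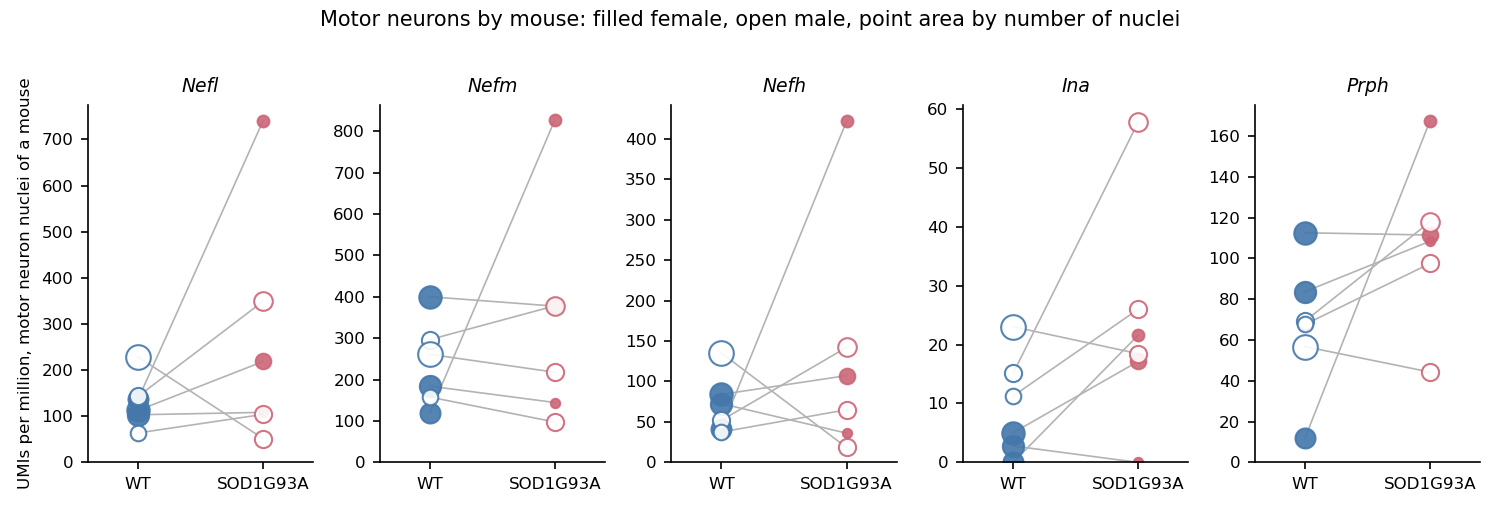
CPM in the motor neuron nuclei of each mouse (y axis, linear, own scale per gene) by genotype (x axis), with filled points for females, open points for males, point area by number of nuclei (1 to 11) and lines joining WT and SOD1G93A mice of the same sex and pool. The genotypes overlap for all 5 genes, and the small filled point at the top of the Nefl, Nefm, Nefh and Prph panels is the female SOD1G93A mouse of pool A, which had 2 nuclei.

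The highest neurofilament levels lay in some of the nuclei with many mitochondrial UMIs. Over 1% of UMIs were mitochondrial in 6 of 23 SOD1G93A motor neurons (from 4 mice) and in 3 of 44 WT motor neurons (from 2 mice). Pooled over such nuclei, Nefl was 815 CPM in SOD1G93A and 486 CPM in WT mice, Nefm 692 and 424 CPM, Nefh 373 and 276 CPM, and Prph 238 and 56.2 CPM. A single nucleus of the female SOD1G93A mouse of pool A gave 135 of the 271 SOD1G93A UMIs of Nefl there. It also gave 145 of the 230 of Nefm and 77 of the 124 of Nefh. In WT mice, nuclei of the male of pool B with 49 and 44 UMIs gave most of the 95 of Nefl. Other nuclei over 1% had 51.7, 52.2 and 95.9 CPM of Nefl, below the median of 108 CPM over all 67 nuclei. In the nuclei with at most 1%, the pooled values were 100 CPM of Nefl in SOD1G93A and 114 CPM in WT mice, 236 and 256 CPM of Nefm, 57.8 and 65.5 CPM of Nefh, and 65.0 and 75.9 CPM of Prph. The SOD1G93A values were thus the lower ones for these 4 genes in the nuclei with few mitochondrial UMIs. In WT mice the pooled Prph value was the lower one in the nuclei over 1%, but on only 11 UMIs. Those 3 nuclei had 35.9, 78.9 and 95.9 CPM of Prph, on both sides of the pooled 75.9 CPM. Over all 67 nuclei the Spearman rho with the mitochondrial percent was 0.24 for Nefl, 0.10 for Nefh and 0.04 for Nefm. Ina stayed higher, with 22.6 CPM on 25 UMIs in SOD1G93A and 9.97 CPM on 23 UMIs in WT mice. With only these nuclei in the fit, a choice made after seeing the data, the log2 differences turned negative, at -0.58 for Nefl, -0.24 for Nefm, -0.28 for Nefh and -0.13 for Prph, none of them called. These motor neuron nuclei were also compared with other neurons, which were not limited in this way. The excess in motor neurons was smaller but still called, at 1.01 for Nefl, 1.76 for Nefm and 1.26 for Nefh, with Ina at -1.27. The part of mitochondrial content in the genotype values was not tested beyond this.

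**Figure D3:**
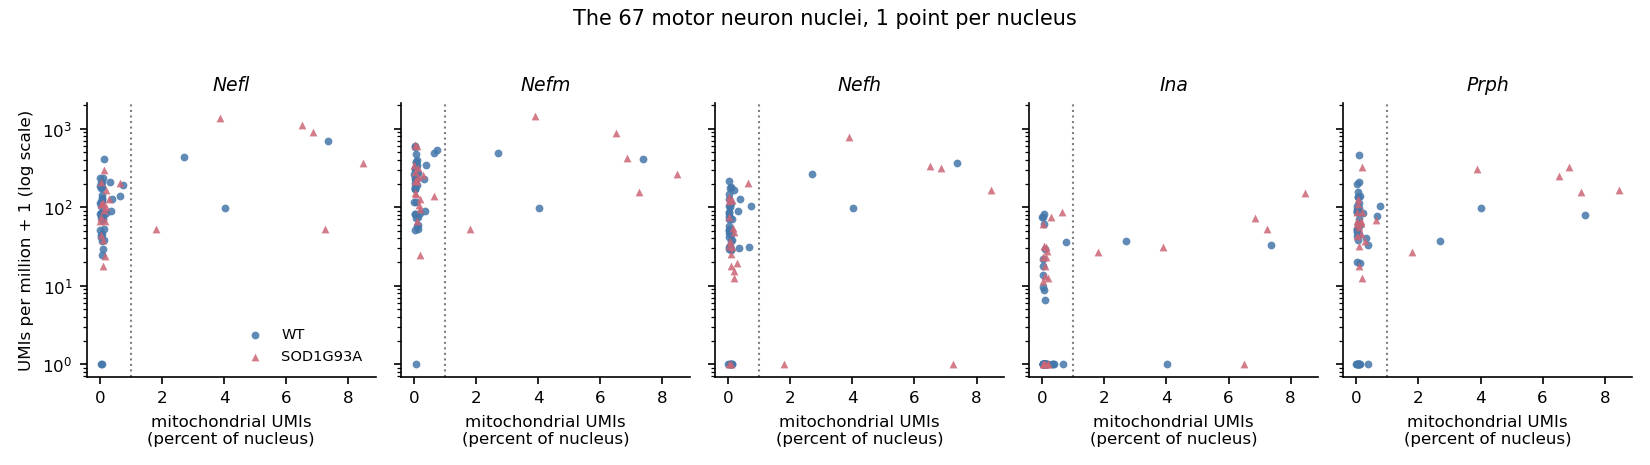
CPM plus 1 (y axis, log scale) of each gene against the percent of mitochondrial UMIs (x axis) in the 67 motor neuron nuclei, 1 point per nucleus, WT as circles and SOD1G93A as triangles, with a dotted line at 1%. Of the 9 nuclei to the right of the line, 6 were from SOD1G93A mice, and the highest Nefl, Nefm and Nefh values lie among them.

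In other neurons the genotypes were close: Nefl was 50.3 ± 14.3 CPM in WT and 53.1 ± 16.5 CPM in SOD1G93A mice (log2 difference 0.07, 95% interval -0.08 to 0.21), and Nefm was 66.8 ± 26.9 and 68.1 ± 19.5 CPM (0.06, -0.17 to 0.30). Nefh was at 0.10 (-0.10 to 0.30), Ina at 0.09 (-0.06 to 0.23) and Prph at -0.28 (-0.69 to 0.13), and none was called (limma, FDR over 0.99 for each). Over the 8 cell types in which any of the 5 genes passed the filter, 0 of 30 tests were called, 2 had an unadjusted p under 0.05, and edgeR and DESeq2 called none either, with 4 and 2 unadjusted p under 0.05 over types and sub-types together. In the 7 of these types other than motor neurons, 0.374% of all gene tests were called. Of these 235 calls, 214 were in astrocytes. Over the 9 neuron sub-types, 0 of 32 tests were called and 4 had an unadjusted p under 0.05, beside 0.0252% of all gene tests called. The smallest adjusted p values were in neurons of unclear sub-type, where Nefh was 22.2 ± 7.65 CPM in WT and 32.0 ± 6.80 CPM in SOD1G93A mice (log2 difference 0.50, SE 0.15, limma FDR 0.41) and Nefm was 63.6 ± 25.3 and 80.6 ± 27.0 CPM (0.36, SE 0.11, limma FDR 0.46). Both were higher in SOD1G93A mice in 6 of 6 pairs, and neither was called. The genotype effect in motor neurons minus that in other neurons was not called for any of the 5 genes, with 1.16% of all genes called, and its largest value was 1.17 for Ina (SE 0.49, limma FDR 0.30).

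Sex and the genotype by sex interaction gave 0 calls for the 5 genes over 62 tests each, beside 0.124% and 0.0439% of all gene tests called in the same types and sub-types (limma, with 3 and 5 unadjusted p under 0.05). With edgeR and DESeq2 there were also 0 calls, with 3 and 2 unadjusted p under 0.05 for sex and 5 and 1 for the interaction. In other neurons the sexes overlapped, with ranges from 31.5 to 59.1 CPM of Nefl in WT females and from 32.6 to 63.2 CPM in WT males. In motor neurons the log2 difference, female minus male, was 0.57 for Nefl, 0.50 for Nefm, 0.81 for Nefh and 0.48 for Prph.

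The pools separated the mice where the genotypes did not. In neurons, the 4 mice of pool C had 31.5 to 38.9 CPM of Nefl, and the 8 mice of pools A and B had 49.96 to 79.9 CPM. Nefm was 37.5 to 54.4 CPM in pool C and 55.2 to 102 CPM in the other pools, and Nefh 13.1 to 20.8 and 22.9 to 35.5 CPM. Prph was 0.864 to 1.32 and 1.39 to 2.87 CPM, on few UMIs. These 4 genes did not overlap between pool C and the others, whereas Ina did (26.4 to 32.0 and 30.3 to 40.8 CPM). Of 15688 genes with a mean of at least 10 UMIs over the mice in neurons, 3.30% lay below without overlap in pool C and 0.459% above. Nefl had no overlap in DE, DI, ME, MI, VE and unclear neurons either, nor in nuclei labelled microglia or in endothelial cells. The share of all genes without overlap was not taken in these groups, so Nefl is not set apart from other genes there. The median depth of neurons ran from 10934 to 15858 UMIs over the mice of pool C and from 9572 to 15985 UMIs over those of the others, and the mean share of mitochondrial UMIs was 0.256 to 0.472% and 0.269 to 0.492%. The cause was not tested. Each pool held both genotypes and sexes, and the pool was a term of the genotype fits.

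Among neuron sub-types, Nefm and Nefh were higher in VE and VI than in DE and DI. Nefm was 106 ± 43.0 CPM in VE and 102 ± 51.9 CPM in VI, against 43.5 ± 13.9 CPM in DE and 44.5 ± 13.2 CPM in DI (n = 12 each). It was higher in VE than in DE in 12 of 12 mice and in VI than in DI in 11 of 12. Nefh was 33.2 ± 11.2 CPM in VE and 34.4 ± 13.6 CPM in VI, against 18.8 ± 6.35 CPM in DE and 18.1 ± 6.82 CPM in DI, and was higher ventrally in 11 of 12 and 12 of 12 mice. Nefl differed less, at 61.0 ± 22.2 and 62.0 ± 22.5 CPM against 48.0 ± 16.6 and 49.7 ± 14.8 CPM. VC, also a ventral type, stood apart from VE: its Nefm was 62.5 ± 24.4 CPM and its Nefh 19.0 ± 10.2 CPM, both below VE in 11 of 12 mice, and Nefh in VC was above DE in only 7 of 12. Ina ran only from 29.8 ± 3.55 CPM in DE to 40.4 ± 26.8 CPM in VM over all 9 sub-types.

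In 1 limma-voom fit over the sub-types, with the mouse as a block, the mean of VE and VI exceeded that of DE and DI by 1.24 on the log2 scale for Nefm (SE 0.11, FDR 1.4e-19), 0.80 for Nefh (SE 0.13, FDR 5.4e-08), 0.26 for Nefl (SE 0.10, FDR 0.025) and 0.24 for Ina (SE 0.098, FDR 0.029). Of 9939 genes tested, 31.3% were called higher and 30.7% lower in ventral neurons, and the sub-types had been set from expression of the same nuclei. With the 6 WT mice alone, Nefl (0.19, FDR 0.13) and Ina (0.16, FDR 0.20) were no longer called, and Ina also lost its call when the SOD1G93A male from pool A was left out (0.18, FDR 0.14). Ventral nuclei were also deeper, with median depths of 19812 UMIs in VE and 23031 UMIs in VI against 10188 UMIs in DE and 11763 UMIs in DI. Excitatory and inhibitory neurons were not told apart by these genes: 0 of 4 were called by limma, none with an unadjusted p under 0.05, beside 20.3% of all genes, and the 95% intervals of the log2 differences were -0.10 to 0.27 for Nefm, -0.11 to 0.26 for Nefl, -0.33 to 0.13 for Nefh and -0.17 to 0.17 for Ina. No neighbours in the order over sub-types passed the permutation test used for cell types, for any gene (0 of 40 pairs).

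**Figure D4:**
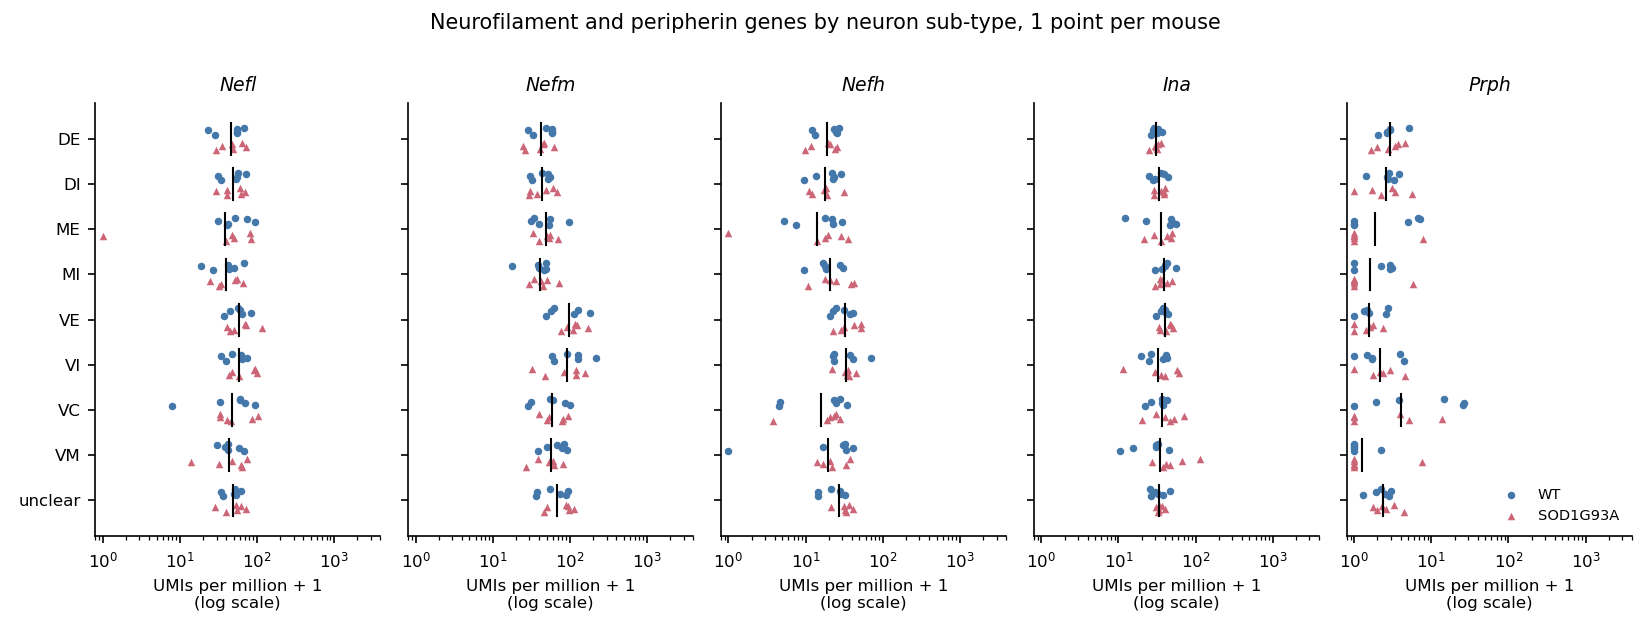
CPM plus 1 (x axis, log scale) of each gene in each neuron sub-type (y axis), with 1 point per mouse, WT as circles, SOD1G93A as triangles and a bar at the mean on the log scale. Nefm and Nefh were highest in the ventral sub-types VE and VI, Ina was nearly level, and Prph was above 10 CPM in 4 mice, all of them in VC.

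Among the nuclei labelled as other neurons, Prph reached its highest level in 1 group of cholinergic nuclei. Of the 350 VC nuclei, 52 formed cluster 56 of the deposited clusters, and they held 55 of the 67 Prph UMIs of VC (41.7 CPM). That was 20.8% of the 265 Prph UMIs of other neurons, so most lay elsewhere at low levels, such as 70 UMIs in DE at 1.89 CPM. A Prph UMI was found in 21 of the 52 nuclei (40.4%), and the remaining VC nuclei had 2.09 CPM. These 52 nuclei held motor neuron markers at levels near those of the nuclei labelled motor neurons, with Chat at 163 CPM (154 CPM in motor neurons), Slc5a7 at 199 CPM (218 CPM) and Isl1 at 29.6 CPM (16.0 CPM), but Mnx1 at 0 (3.04 CPM), so their label as cholinergic neurons other than motor neurons was not settled by these markers. In finer labels of the same mapping, VC_2, which took 51 of the 52 nuclei, had 23.0 CPM and VC_1 had 0.746 CPM. Cluster 56 also had the highest Nefl of the 46 neuron clusters with 40 nuclei or more, at 87.3 CPM. Its nuclei came from 8 mice, 41 of them from WT and 11 from SOD1G93A mice, and 41 of its 55 Prph UMIs from the WT males of pools A and B. VC as a whole had 11.3 ± 11.8 CPM of Prph in WT and 3.30 ± 4.95 CPM in SOD1G93A mice, lower in SOD1G93A in 5 of 6 pairs and equal at 0 in the other, but on 67 UMIs it did not pass the filter and was not tested.

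Over the 46 clusters Nefm spread most among the neurofilament subunits, from 24.1 to 175 CPM, with the highest in cluster 14, which was also highest for Nefh (53.8 CPM) and had a median depth of 31402 UMIs. Nefl ran from 26.2 to 87.3 CPM and Ina from 20.9 to 49.8 CPM. Cluster values of Nefm and Nefh had a Spearman rho of 0.74 and those of Nefl and Nefm 0.60, while Nefm with the median depth of the cluster had 0.58. The clusters share mice and pools and differ in depth, so these are descriptions.

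The balance between Nefl and Nefm also differed between groups of nuclei. The number of Nefl UMIs per Nefm UMI was 1.62 in astrocytes, 1.47 in Schwann and meningeal nuclei and 1.28 in oligodendrocytes, against 0.74 in neurons and 0.64 in motor neurons. Within neurons it was 1.04 in DE and 1.11 in DI but 0.55 in VE and 0.50 in VI. The ratio was higher in DE than in VE in 12 of 12 mice, in DI than in VI in 11 of 11 mice with at least 10 UMIs of both genes, and in astrocytes than in neurons in 12 of 12. The order of DE over VE and DI over VI follows from the larger ventral excess of Nefm, and the ratio between neurons and motor neurons was not ordered so clearly (higher in neurons in 7 of 11 mice). Prph per Nefm was 0.29 in motor neurons, 0.080 in Schwann and meningeal nuclei and 0.024 in neurons.

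**Figure D5:**
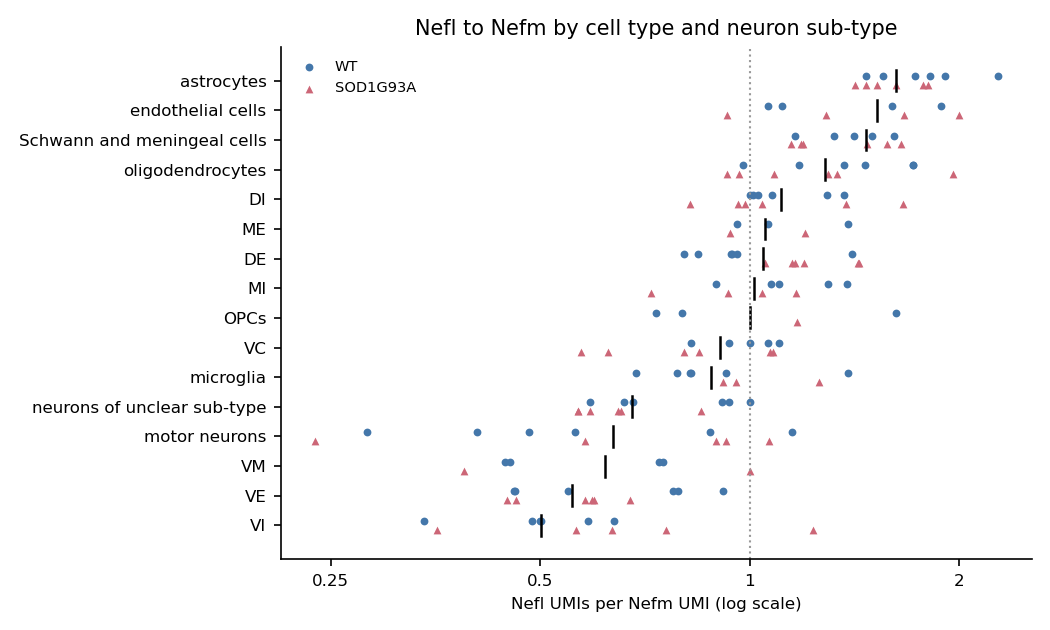
Nefl UMIs per Nefm UMI (x axis, log scale) by cell type and neuron sub-type (y axis), with 1 point for each mouse with at least 10 UMIs of both genes, WT as circles and SOD1G93A as triangles, a bar at the ratio of summed UMIs and a dotted line at 1. The bars of astrocytes, endothelial cells, Schwann and meningeal nuclei and oligodendrocytes lie above 1, dorsal and mid sub-types near 1, and VE, VI, VM and motor neurons below 1.

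The nuclei labelled Schwann and meningeal cells had the highest levels of 4 of the genes: 1420 ± 572 CPM of Nefl (from 756 over a median of 1279 to 2607 CPM, n = 12), 983 ± 402 CPM of Nefm, 503 ± 217 CPM of Nefh and 280 ± 79.0 CPM of Ina. Nefl was higher there than in the motor neurons of any mouse, and Prph, at a mean of 71.4 CPM (from 0 to 291 CPM), overlapped with motor neurons. The 1031 nuclei, 348 from WT and 683 from SOD1G93A mice, had a median of only 1584 UMIs. Besides the markers given above, the motor neuron list summed to 330 CPM in them, nearly all of it Slc5a7, the choline transporter, at 295 CPM (218 CPM in motor neurons), with Chat at 26.3 CPM (154 CPM in motor neurons). Markers of dorsal root ganglion sensory neurons summed to 1.27 CPM, with 3 of 5 at 0. The neurofilament levels differed within the label, from 505 CPM of Nefl in the 82 nuclei of cluster 6 to 927 CPM in the 497 of cluster 8 and 2063 CPM in the 451 of cluster 10. Genotype was not called for any of the 5 genes there (Nefl -0.09, SE 0.22; Prph 0.60, SE 0.40; limma FDR 0.999 for both). The source of these filament transcripts was not tested.

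Astrocytes showed a related split. Nefl was 281 CPM in cluster 2 and 101 CPM in cluster 1, with Nefm at 170 and 64.7 CPM, and the median share of mitochondrial UMIs was 2.14% and 0.43%. Over all astrocytes the neuron markers summed to 874 CPM. Other glial nuclei also held the genes: oligodendrocytes had 66.5 ± 19.6 CPM of Nefl, 53.0 ± 19.6 CPM of Nefm and 3.61 ± 2.66 CPM of Prph, and OPCs 45.9 ± 26.4 CPM of Nefm. Ina was at 17.6 ± 4.92 CPM in oligodendrocytes and 15.5 ± 9.79 CPM in OPCs, beside 34.1 ± 4.54 CPM in neurons. Prph in oligodendrocytes was 1.90 ± 0.70 CPM in WT and 5.33 ± 2.83 CPM in SOD1G93A mice, higher in 6 of 6 pairs, but on 52 UMIs it was under the filter and was not tested. In fibroblasts Prph was at 0 UMIs, which allows up to 3 UMIs (13.97 CPM).

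The genes of most similar pattern were sought over 18 groups, the 9 cell types other than neurons and the 9 sub-types, by Pearson r of the mean log2(CPM + 1) in WT mice among 15915 genes. Those nearest to Prph were Uts2b (r = 0.93), Slc5a7, Chodl, Vdr and Slc10a4, and those nearest to Nefl were Vamp1 (r = 0.90), Cd24a, Eif5a2, Nkiras1 and Uts2. Nefm was nearest to Uts2 (r = 0.92), Fndc4, Chga, Map1a and Arl4c, and Nefh to Trappc9 (r = 0.90), Eif5a2, Asb16, Calcb and Nefl. Ina had another set, Tmem59l (r = 0.94), Thy1, Gfra4, Cep170b and Chd3os. Among the 5 genes, Nefl and Nefm were most alike (r = 0.86) and Ina and Prph least (r = 0.20). The groups share mice, and the values are descriptions.

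A further 6 lists of 61 other cytoskeletal genes were read in the same fits. Of 14 motor proteins of axonal transport, all tested in motor neurons, Kif3a, a kinesin-2 motor subunit, rose in SOD1G93A mice from 47.7 ± 11.5 to 92.9 ± 34.4 CPM (log2 difference 0.89, SE 0.24, limma FDR 0.072, higher in 5 of 6 pairs). Dync1i1, a dynein intermediate chain, fell from 1225 ± 123 to 939 ± 81.7 CPM (-0.51, SE 0.14, limma FDR 0.086, lower in 6 of 6 pairs). Leaving out 1 mouse ended the call of Kif3a in 8 of 12 fits (FDR up to 0.33, without the mouse with 2 nuclei) and that of Dync1i1 in 9 of 12 (FDR up to 0.20), and edgeR called neither (FDR 0.14 and 0.17). DESeq2 called Dync1i1 (FDR 0.076) but not Kif3a (FDR 0.16). Unscaled totals kept only Kif3a (limma FDR 0.041), and the fit without a filter only Dync1i1 (limma FDR 0.036). Both calls were lost with a minimum count of 30 and without the pool term. Neither was called with only the nuclei of at most 1% mitochondrial UMIs (limma FDR 0.46 and 0.34) or without the mice of under 3 motor neuron nuclei (limma FDR 0.55 and 0.43). The 12 other transport motors were not called, and the median over the 14 was 0.07 beside 0.00 over all genes tested, of which 3.07% were called.

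In motor neurons none of the 28 other list genes tested was called for genotype: 8 tubulins and microtubule-associated proteins, 9 linkers, 5 kinases and phosphatases of neurofilament tails, 5 regulators of filament turnover and RNA, and 1 other intermediate filament gene. With 3.07% of all genes called, a count of 0 in lists of this size sets them apart from no other genes. The smallest adjusted p values in these lists belonged to Sptan1, a spectrin (-0.48, SE 0.17, limma FDR 0.15, lower in 6 of 6 pairs), and Arhgef28, an exchange factor that binds the Nefl transcript (1.54, SE 0.54, limma FDR 0.15, with 1 SOD1G93A mouse at 0). Others named by the same rule were Ank2 at 0.27, Map1b at 0.30, Map2 at -0.25, Ppp2ca at 0.59, Gsk3b at 0.36 and Sync at 0.16, none called. In astrocytes, 2 of the 4 other intermediate filament genes tested rose in SOD1G93A mice, beside 2.29% of all genes called there: Gfap, the filament of reactive astrocytes, from 251 ± 39.9 to 577 ± 88.9 CPM (log2 difference 1.12, SE 0.11, limma FDR 7.3e-07) and Vim, vimentin, from 7.84 ± 3.84 to 26.9 ± 10.9 CPM (1.71, SE 0.27, limma FDR 0.0020). Both were higher in 6 of 6 pairs and did not overlap between the genotypes. The mean share of mitochondrial UMIs in astrocytes did not overlap either, at 1.34 to 1.84% in WT and 2.20 to 2.82% in SOD1G93A mice, and its part in these values was not tested.

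Against other neurons, motor neurons had 10 of the 14 transport motors higher and 0 lower, with a median log2 difference of 0.60 beside 0.02 over all genes, of which 22.0% were called higher and 19.1% lower. Linkers had 7 of 9 higher and 2 lower (median 0.61), and tubulins and microtubule-associated proteins 6 of 11 higher and 1 lower (median 0.42). Nearer to the shares of all genes, kinases and phosphatases had 2 of 9 higher and 1 lower (median 0.11), turnover and RNA regulators 1 of 6 higher and 2 lower (median 0.18), and other intermediate filament genes 2 of 6 higher and 2 lower (median 0.38). In ventral against dorsal neurons, 8 of 9 linkers were higher and 1 lower (median 0.32 beside 0.00 over all genes, of which 31.3% were called higher and 30.7% lower), and 8 of 14 transport motors higher and 3 lower (median 0.28). The remaining lists were more evenly split there, with 4 of 11 tubulins and microtubule-associated proteins higher and 3 lower, 2 of 8 kinases and phosphatases higher and 2 lower, 2 of 6 turnover and RNA regulators higher and 2 lower, and 2 of 4 other intermediate filament genes higher and 1 lower.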

How the data were processed

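Nuclei of 12 mice were sequenced in 3 pools. According to the submitters' processing notes, the authors used bcl2fastq 2.20.0.422, STAR 2.5.1b, Cell Ranger 3.1, R 4.0.3 and Seurat 4.0.3, with build mm10. The deposited table holds raw UMI counts per gene and nucleus, the deposited table of nuclei gives mouse, type, sub-type, cluster and percent of mitochondrial UMIs, and the authors had dropped nuclei with several hashtags or none, under 200 genes or over 10% mitochondrial UMIs; no further doublet caller was run. The deposited normalized counts were not used.

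UMIs were summed per mouse and type or sub-type. Counts were tested with limma 3.58.1 (voom, robust eBayes) and edgeR 4.0.16 (filterByExpr with a minimum count of 10, TMMwsp scaling) in R 4.3.3, with 4 sex and genotype groups and the pool as terms, Benjamini-Hochberg FDR under 0.1 per type. Mice with no nucleus of a type dropped out of its fit. Pools were given as batches by the labels: in neurons the deviations of same-pool mice from their group means had a median correlation of 0.29 (18 pairs, -0.15 for pairs of other pools). In motor neurons the same medians were only 0.029 and -0.0016. The fits were tested on simulated data. A gene at 0 UMIs was given a limit of 3 counts, which cover counting error only. Alternatives were edgeR, DESeq2 1.42.0, unscaled totals, minimum counts of 30 or none, no pool term, WT mice only, each mouse left out, and, added after seeing the data, the motor neuron subsets.

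The 5 genes, the lists and the tests were chosen with earlier results of these data known. Named list genes were those with FDR under 0.1 for genotype in any type and the 2 per list with the smallest adjusted p in motor neurons. Some genes that the rule or the marker lists hold are not reported here. Named similar genes were the 5 nearest of those reaching 5 CPM in 1 group. Depth per mouse set the precision: 1 to 11 motor neuron nuclei against 268 to 1565 other neurons.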

Additional observations from a re-analysis of the deposited data

Results flagged for a closer look

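Dixon's ratio was read for the 6 WT and the 6 SOD1G93A mice of every gene and group with a genotype test, 124 sets in all, and 7 had a mouse that stood apart; chance gives about 1 in 20. In motor neurons, the female SOD1G93A mouse of pool A had 422 CPM of Nefh on 2 nuclei, with the next mouse at 142 CPM. In endothelial cells, the female SOD1G93A mouse of pool B had 242 CPM of Nefl, with the next at 72.1 CPM. The male SOD1G93A mouse of pool A stood apart in nuclei labelled Schwann and meningeal cells, at 2036 CPM of Nefl with the next at 1348 CPM, and in astrocytes, at 276 CPM of Nefm with the next at 133 CPM. In nuclei labelled Schwann and meningeal cells, the male SOD1G93A mouse of pool B had 291 CPM of Prph, on 89 UMIs from 60 nuclei, with the next at 84.1 CPM. Nefm was 97.2 CPM in ME neurons of the male WT mouse of pool A, on 15 nuclei, and 16.9 CPM in MI neurons of the female WT mouse of pool C, the lowest of its group, with the next at 37.6 CPM.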

How the results depend on the processing

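No gene of the 5 was called for genotype under any alternative run (406 values over 62 results), nor for sex or the interaction with edgeR or DESeq2. In motor neurons, the genotype difference of Nefl ran from 0.30 to 1.03 on the log2 scale over the 12 fits that left out a mouse, lowest when the SOD1G93A female from pool A was left out, and that of Nefm from -0.11 to 0.56. Without the mice of under 3 motor neuron nuclei or with nuclei of at most 1% mitochondrial UMIs, both chosen after seeing the data, Nefl was at 0.36 and -0.58, and the genes called in motor neurons went from 157 to 22 and 5. That count was 79 with edgeR, 117 with DESeq2, 186 with unscaled totals, which moved the median of all genes to 0.14, 51 with a minimum count of 30, 483 without a filter and 40 without the pool term (no replicate block), and 52 to 260 with a mouse left out. Motor neurons against other neurons had 5 calls under each alternative but a minimum count of 30, which left Prph untested and gave 4. Ventral against dorsal neurons had 4 calls, 2 with WT mice only and 3 when the SOD1G93A male from pool A was left out (Ina lost).

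The share of motor neurons with a UMI at 3000 UMIs a nucleus was 32.5% for Nefl, 47.9% for Nefm, 30.6% for Nefh, 12.2% for Ina and 15.0% for Prph, and without thinning 96.3% for Nefl, 97.9% for Nefm, 84.7% for Nefh, 48.7% for Ina and 87.2% for Prph. In neurons it was 13.6% for Nefl, 14.7% for Nefm, 6.14% for Nefh, 10.2% for Ina and 0.769% for Prph at 3000 UMIs (15.7% for Nefl, 12.0% for Nefm and 0.945% for Prph in endothelial cells), and 45.3%, 44.7%, 25.7%, 36.8% and 2.44% in the same order without thinning. The number of motor neuron nuclei, 67 in 12 mice, limits every genotype value given for them.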
